A study of Mus musculus with 14 samples.

Results

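The genes described here are 7 of the 35735 genes in the deposited expression table: the mouse Fcγ receptors Fcgr1, Fcgr2b, Fcgr3 and Fcgr4, their shared signalling chain Fcer1g, the neonatal Fc receptor Fcgrt, and Fcrls, the surface marker with which the cells were sorted. They were chosen by symbol, and all 7 were found once and had enough reads to be tested. RNA was sequenced from microglia, the resident macrophages of neural tissue, isolated from retinas of 12-week-old mice that differed in their APOE genotype, as the labels give it. The 14 libraries fall into 4 groups: APOE E4/E4 with microbead injection (APOE4 microbead, n = 3), APOE E4/E4 with sham injection (APOE4 sham, n = 4), APOE E3/E3 with microbead injection (APOE3 microbead, n = 3) and APOE E3/E3 with sham injection (APOE3 sham, n = 4). Microbeads in the eye obstruct fluid outflow and are used as a model of glaucoma. Each library came from 1 retina. The labels do not say whether the retinas came from separate animals, so p-values measure the spread between these samples only. Cells were sorted as Fcrls-positive, CD11b-positive and Ly6c-negative, 100 to 600 per retina. The protein product of one of the genes described therefore decided which cells were sequenced.

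Fcγ receptors bind the constant part of IgG and let macrophages and microglia respond to antibody-coated targets. In the mouse, Fcgr1, Fcgr3 and Fcgr4 are activating and signal through the ITAM motif of the Fcer1g chain and the kinase Syk, which leads to phagocytosis and an oxidative burst. Fcgr2b is the inhibitory member and carries an ITIM motif that recruits phosphatases, so the balance of both kinds sets the response to immune complexes. Fcgrt forms the neonatal Fc receptor with B2m and recycles IgG inside cells. Fcrls is a mouse member of the Fc receptor-like family and is widely used as a microglial surface marker.

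In the GENCODE M21 annotation of GRCm38, 4 of the 7 genes lie together on chromosome 1. Fcgr2b (ENSMUSG00000026656) spans 170958617 to 170976547 on the minus strand, Fcgr4 (ENSMUSG00000059089) 171018920 to 171029761 on the plus strand, Fcgr3 (ENSMUSG00000059498) 171051174 to 171064935 on the minus strand, and Fcer1g (ENSMUSG00000058715) 171229572 to 171234365 on the minus strand. On chromosome 3, Fcgr1 (ENSMUSG00000015947) spans 96282909 to 96293969 and Fcrls (ENSMUSG00000015852) 87250758 to 87263738, both on the minus strand. Fcgrt (ENSMUSG00000003420) lies on chromosome 7 from 45092990 to 45103851 on the minus strand.

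The 250 bases before the RefSeq start (build GRCm38.p6) are shown for the genes on which the results turn: Fcgr2b and Fcgr4, the pair with higher reads after microbead injection, Fcgr1, the activating receptor with the next largest difference in APOE4, and Fcrls, the sort marker. The Fcgr2b window lies inside the longer span that GENCODE gives the gene. So does most of the Fcrls window, with the match marked in it. Sequences are written 5′ to 3′ on the strand of the gene, and capitals mark matches to 3 motifs searched on both strands. These are the PU.1 core GAGGAAG, the STAT motif TTCNNNGAA, and the IRF motif, which is GAAA and, after any 2 bases, GAAA again.
Fcgr2b (chr1:170976072-170976321, minus strand): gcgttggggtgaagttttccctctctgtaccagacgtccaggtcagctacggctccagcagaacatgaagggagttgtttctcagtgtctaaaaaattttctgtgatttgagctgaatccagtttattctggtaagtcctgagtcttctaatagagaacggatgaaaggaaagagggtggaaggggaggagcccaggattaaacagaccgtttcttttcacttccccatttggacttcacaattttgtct
Fcgr4 (chr1:171018676-171018925, plus strand): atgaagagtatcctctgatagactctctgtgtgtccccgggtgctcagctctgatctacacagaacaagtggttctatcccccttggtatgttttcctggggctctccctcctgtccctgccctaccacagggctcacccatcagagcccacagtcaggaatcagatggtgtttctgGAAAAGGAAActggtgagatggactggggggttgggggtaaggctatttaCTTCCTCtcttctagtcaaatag
Fcgr1 (chr3:96293970-96294219, minus strand): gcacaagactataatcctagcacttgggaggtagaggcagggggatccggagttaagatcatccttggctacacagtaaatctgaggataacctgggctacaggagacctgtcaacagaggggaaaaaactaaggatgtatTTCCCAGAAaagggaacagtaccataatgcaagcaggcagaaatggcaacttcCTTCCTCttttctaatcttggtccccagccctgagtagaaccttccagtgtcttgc
Fcrls (chr3:87263525-87263774, minus strand): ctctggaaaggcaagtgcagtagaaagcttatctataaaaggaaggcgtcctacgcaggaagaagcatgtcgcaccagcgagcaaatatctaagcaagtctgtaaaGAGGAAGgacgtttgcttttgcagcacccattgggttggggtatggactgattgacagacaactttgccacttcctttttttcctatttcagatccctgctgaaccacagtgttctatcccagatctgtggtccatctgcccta
PU.1 (Spi1) is the macrophage lineage factor, and IRF and STAT factors act downstream of interferons. The window of Fcgr4 holds the PU.1 core on the other strand, 23 to 17 bases before the start, and the IRF motif 73 to 64 bases before it. That of Fcgr1 holds the PU.1 core 56 to 50 bases before the start and the STAT motif 109 to 101 bases before it, and that of Fcrls holds the PU.1 core 144 to 138 bases before the start. No match to these letters lies in the Fcgr2b window. Of all 7 genes, 4 had the PU.1 core (Fcgr1, Fcgr3, Fcgr4 and Fcrls), against 10.6% of 32851 windows of the same length. The STAT motif (7.0% of windows) and the IRF motif (3.0% of windows) were found in 1 gene each. Fcgr3 has 2 RefSeq starts, and the window of the first, the only one used, also lies inside its GENCODE span. No motif overlapped another in these windows, and a match is a description of the letters only.

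The libraries ranged in depth between 451173 and 727439 estimated reads. A share of 38.1% to 64.5% lay on 10 predicted genes among the 12 most abundant, so levels are given as TMM-normalised CPM, that is, reads scaled to a common library size and composition. Microglial markers (P2ry12, Tmem119, Sall1, Cx3cr1, Siglech, Gpr34 and Csf1r) all had reads and summed to 7952 to 9845 CPM in APOE4 microbead and 8736 to 10220 in APOE4 sham libraries. They summed to 3412 to 6206 CPM in APOE3 microbead and 7896 to 11360 in APOE3 sham libraries, so the APOE3 microbead group stood below its sham group with no overlap. The monocyte list, 9 of whose 9 genes had reads, summed to 525, 1225 and 403 CPM in APOE4 microbead and 191 to 355 in APOE4 sham libraries. Its sum was 4252, 6587 and 1102 CPM in APOE3 microbead and 246 to 374 in APOE3 sham libraries. Most of that sum was Lyz2, with a mean of 3683 CPM in APOE3 microbead and 271.5 CPM in APOE3 sham libraries. The means of 6 more of the 9 genes were also higher in APOE3 microbead than in APOE3 sham libraries, among them Vim (116.5 and 2.59 CPM), Ccr2 (71.9 and 12.1 CPM) and Chil3 (55.4 and 1.61 CPM). Those of Ly6c2 and F13a1 were not, and Ly6c2, the gene for the antigen gated out, had 17 reads in all 14 libraries. Neutrophils also carry Fcgr4. The neutrophil list summed to 327 to 455 CPM in APOE4 microbead and 269.8 to 396 in APOE4 sham libraries. In APOE3 the sum was 204 to 328 CPM in microbead and 278 to 392 in sham libraries. Most of it was Csf3r, with means of 358.5 CPM in APOE4 microbead and 313.2 CPM in APOE4 sham libraries. Csf3r means in APOE3 were 223.5 CPM in microbead and 296 CPM in sham libraries. Of the other genes, S100a8, S100a9, Retnlg and Mmp8 had 3, 2, 5 and 9 reads in all 14 libraries, and Cxcr2 had 179. In sorted pools of this kind a change in cell mixture and a change in RNA per cell cannot be told apart.

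Levels among the genes are compared per length, in TPM from the authors' deposited table. Fcer1g had the highest TPM of the 7 in every library, and its mean over the 14 libraries was 291 TPM. Next came Fcgr3 with a mean of 84.8 TPM and a rank of 2 or 3 in each library, then Fcgr2b with 50.5 TPM and ranks of 2 to 5. The means of Fcgr1 (31.6 TPM, ranks 3 to 5), Fcrls (25.5 TPM, ranks 3 to 6) and Fcgr4 (14.7 TPM, ranks 5 to 7) followed, and Fcgrt was lowest on average at 7.79 TPM (ranks 6 and 7). Neighbours from Fcgr3 down exchanged ranks between libraries, whereas Fcer1g stood apart from the rest. TPM also moves with the reads on the predicted genes, so comparisons between groups rest on CPM.

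**Figure D1:**
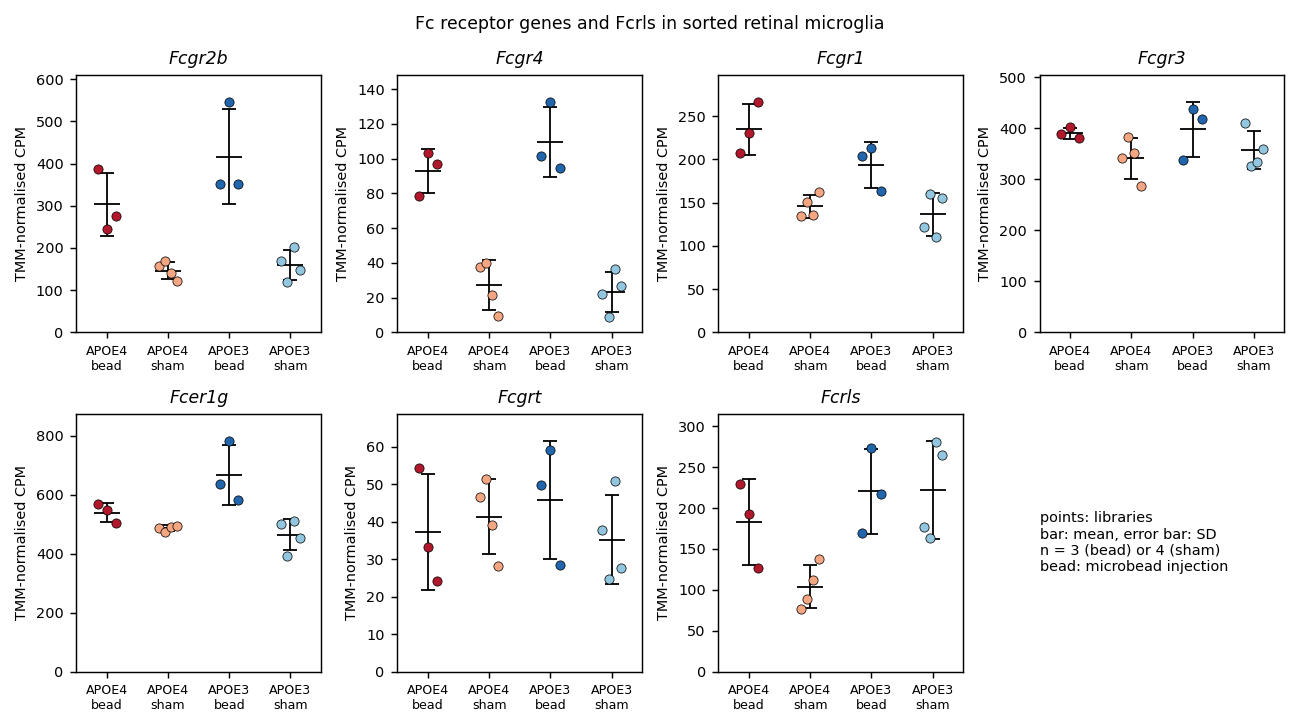
TMM-normalised CPM (vertical axes, from 0) of each gene in the 4 groups. Points are libraries, and the bar and error bar are the mean and SD of 3 microbead or 4 sham libraries. Fcgr2b and Fcgr4 lie higher in every microbead library than in any sham library of either genotype, and Fcrls is lowest in APOE4 sham.

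The comparison of microbead with sham asks how Fc receptor expression in retinal microglia differs after the glaucoma model in each genotype. Fcgr2b, the inhibitory receptor, and Fcgr4, an activating one, rose in both genotypes, Fcgr2b 2.06-fold in APOE4 and 2.62-fold in APOE3, and Fcgr4 3.39-fold in APOE4 and 4.68-fold in APOE3. The other 5 genes did not pass the test in either genotype. In APOE4, 2 of 7 genes were called, both higher, where 0.197% of the 7605 genes tested were called in either direction and 0.171% as higher. In APOE3 the same 2 genes were called, where 5.15% of genes were called in either direction and 3.54% as higher. A gene was called at an adjusted p under 0.05 in the edgeR quasi-likelihood test, adjusted by Benjamini-Hochberg over the 7605 genes. Differences below are log2 of microbead over sham, with their standard error (SE).

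Fcgr2b had 388.3, 244.3 and 276.6 CPM in APOE4 microbead libraries, against 156.2, 168.9, 140.5 and 120.8 CPM in APOE4 sham libraries. In APOE3 it had 350.7, 545.6 and 351.2 CPM in microbead libraries, against 168.3, 119.5, 203.2 and 147.7 CPM in sham libraries. Every microbead library was above every sham library, across both genotypes, and the highest single value was APOE3 microbead 2. The group means were 303.1 ± 75.5 CPM in APOE4 microbead and 146.6 ± 20.8 CPM in APOE4 sham, and 415.9 ± 112.4 CPM in APOE3 microbead and 159.7 ± 35.3 CPM in APOE3 sham (SD, n = 3, 4, 3 and 4). The log2 difference was 1.04 ± 0.22 (SE) in APOE4 (edgeR adjusted p = 0.0454) and 1.39 ± 0.22 in APOE3 (adjusted p = 0.000194).

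Fcgr4 is reported to bind a subset of mouse IgG isotypes and is found on monocytes, macrophages and neutrophils. It had 78.5, 103.1 and 96.8 CPM in APOE4 microbead libraries, against 37.7, 39.8, 21.3 and 9.44 CPM in APOE4 sham libraries. In APOE3 it had 101.8, 132.5 and 94.5 CPM in microbead libraries, against 22.3, 8.79, 36.6 and 26.4 CPM in sham libraries. Here too the microbead and sham values did not overlap, and the sham libraries rested on 5 to 24 reads each. The log2 difference was 1.76 ± 0.35 in APOE4 (edgeR adjusted p = 0.0273) and 2.23 ± 0.35 in APOE3 (adjusted p = 0.000178).

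The APOE3 calls of Fcgr2b and Fcgr4 held with every single library left out. They were lost without both APOE3 microbead 1 and 2, the libraries with the highest monocyte sums, where a lone microbead library was assumed to vary like the other groups (Fcgr2b 1.14, adjusted p = 0.0603, and Fcgr4 2.00, adjusted p = 0.0603). APOE3 microbead 2 had the highest monocyte sum and also the highest Fcgr2b and Fcgr4 of the 14 libraries. The part of monocyte transcripts in the result was not tested. In APOE4 the Fcgr2b call held in 10 of 27 alternatives and the Fcgr4 call in 16. For Fcgr2b the adjusted p was 0.0630 without APOE3 sham 1, 0.0548 without APOE3 sham 4, and 0.110, 0.0907, 0.148 and 0.262 without APOE4 sham 1, 2, 3 and 4. Leaving out APOE4 microbead 1, 2 or 3 gave 0.225, 0.0908 and 0.127. For Fcgr4 the call was lost without APOE4 sham 3 (0.111), APOE4 sham 4 (0.140), APOE4 microbead 2 (0.150) and APOE4 microbead 3 (0.127).

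**Figure D2:**
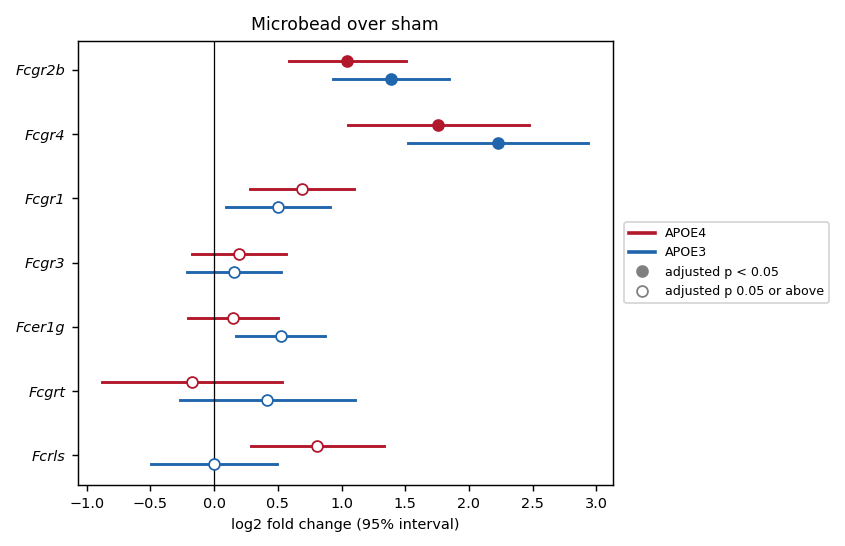
Log2 fold change of microbead over sham (horizontal axis) for each gene, with 95% intervals, from the edgeR fit over 14 libraries. APOE4 is drawn above APOE3, and filled points have an adjusted p under 0.05. Only Fcgr2b and Fcgr4 are filled, in both genotypes.

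Fcgr1, the high-affinity IgG receptor, had 207.2, 231.0 and 266.3 CPM in APOE4 microbead libraries, against 134.6, 150.7, 135.2 and 162.3 CPM in APOE4 sham libraries. In APOE3 it had 203.7, 213.8 and 164.0 CPM in microbead libraries, against 121.9, 159.9, 109.8 and 154.9 CPM in sham libraries. No microbead library fell within the range of the sham libraries of its genotype, yet the test over all genes was not passed. The log2 difference was 0.69 ± 0.20 in APOE4 (edgeR adjusted p = 0.217) and 0.50 ± 0.20 in APOE3 (adjusted p = 0.189). When only the APOE4 libraries were fitted, the APOE4 difference was 0.68 with an adjusted p of 0.0480.

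Fcer1g, the ITAM chain on which Fcgr1, Fcgr3 and Fcgr4 depend, had 567.3, 546.9 and 503.2 CPM in APOE4 microbead libraries, against 488.2, 472.0, 490.9 and 494.4 CPM in APOE4 sham libraries. In APOE3 it had 635.9, 780.6 and 583.0 CPM in microbead libraries, against 499.8, 393.6, 510.2 and 453.8 CPM in sham libraries. Microbead values were above all sham values of their genotype, by a wide gap in APOE3 and by a narrow one in APOE4. The log2 difference was 0.15 ± 0.17 in APOE4 (edgeR adjusted p = 0.952) and 0.52 ± 0.17 in APOE3 (adjusted p = 0.0758). The APOE3 difference was called without APOE3 microbead 3 (0.61, adjusted p = 0.0399) and by DESeq2 (0.52, adjusted p = 0.0323).

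In each genotype 4 of the 7 genes (Fcgr1, Fcgr2b, Fcgr4 and Fcer1g) had microbead libraries wholly above the sham libraries. Over all genes tested this was so for 4.97% in APOE4 and 7.63% in APOE3.

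Fcgr3, the low-affinity activating receptor with the most reads of the 4 Fcγ receptors, had 380.4 to 402.3 CPM in APOE4 microbead libraries and 286.8 to 382.6 CPM in APOE4 sham libraries. It had 337.2 to 437.6 CPM in APOE3 microbead libraries and 326.8 to 410.4 CPM in APOE3 sham libraries. The groups overlapped in both genotypes, and the log2 differences were 0.19 (95% interval -0.17 to 0.56) in APOE4 and 0.16 (-0.21 to 0.52) in APOE3. Adjusted p-values were 0.935 in APOE4 and 0.803 in APOE3 (edgeR). These intervals lie below the fold changes measured for Fcgr4 and include 0.

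Fcgrt, the heavy chain of the neonatal Fc receptor, had 14 to 53 reads per library. It had 24.2 to 54.3 CPM in APOE4 microbead libraries and 28.3 to 51.3 CPM in APOE4 sham libraries, and 28.5 to 59.0 CPM in APOE3 microbead libraries and 24.6 to 50.8 CPM in APOE3 sham libraries. With intervals of -0.88 to 0.54 in APOE4 and -0.27 to 1.11 in APOE3, a difference of a size inside these intervals was not detectable at this depth. B2m, the light chain that pairs with Fcgrt and with class I molecules, rose in APOE3 (1514 ± 280 CPM in microbead and 876 ± 104 CPM in sham, log2 difference 0.79 ± 0.18, edgeR adjusted p = 0.00544). That call was lost without APOE3 microbead 2 (0.63, adjusted p = 0.0709), without both APOE3 microbead 1 and 2 (0.60, 0.326), with library totals (0.168) and with only the APOE3 libraries fitted (0.0958). In APOE4 B2m had 1446 ± 158 CPM in microbead and 1168 ± 164 CPM in sham libraries (adjusted p = 0.854).

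The make-up of the Fcγ receptor transcripts within each library does not depend on scaling between libraries. Fcgr2b made up 34.7%, 25.5% and 26.3% of the summed TPM of Fcgr1, Fcgr2b, Fcgr3 and Fcgr4 in APOE4 microbead libraries and 19.4% to 22.2% in APOE4 sham libraries. Its share was 32.4% to 40.0% in APOE3 microbead and 18.7% to 27.6% in APOE3 sham libraries. Fcgr4 held 10.97% ± 1.91 in APOE4 microbead, 4.80% ± 2.21 in APOE4 sham, 11.9% ± 0.8 in APOE3 microbead and 4.09% ± 1.83 in APOE3 sham libraries. Fcgr3, which held the largest share in sham libraries, made up 41.0% ± 1.5 in APOE4 microbead and 55.3% ± 3.0 in APOE4 sham, and 38.5% ± 5.2 in APOE3 microbead and 56.5% ± 5.5 in APOE3 sham (SD, n = 3, 4, 3 and 4). Its mean CPM was not lower with microbeads, at 390.3 ± 11.1 in APOE4 microbead and 341.1 ± 40.0 in APOE4 sham, and 397.9 ± 53.4 in APOE3 microbead and 357.7 ± 38.02 in APOE3 sham libraries.

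Set against the inhibitory receptor, the activating receptors Fcgr1, Fcgr3 and Fcgr4 together had 2.54 ± 0.57 times the TPM of Fcgr2b in APOE4 microbead libraries and 3.84 ± 0.30 times in APOE4 sham libraries. The ratio was 1.86 ± 0.32 in APOE3 microbead libraries and 3.51 ± 0.77 in APOE3 sham libraries. The groups did not overlap within a genotype, since the APOE4 ranges were 1.88 to 2.92 with microbeads and 3.51 to 4.15 with sham, and the APOE3 values were at most 2.08 with microbeads and 2.63 to 4.34 with sham. The ratio of Fcer1g to the 3 activating receptors was 1.90 ± 0.17 in APOE4 microbead, 2.38 ± 0.27 in APOE4 sham, 2.34 ± 0.19 in APOE3 microbead and 2.26 ± 0.26 in APOE3 sham libraries. No test was run on these ratios, which repeat the reads tested above. The ratios and the shares also carry the limits, given below, of the Fcgr1 TPM and of reads shared by Fcgr2b and Fcgr3.

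**Figure D3:**
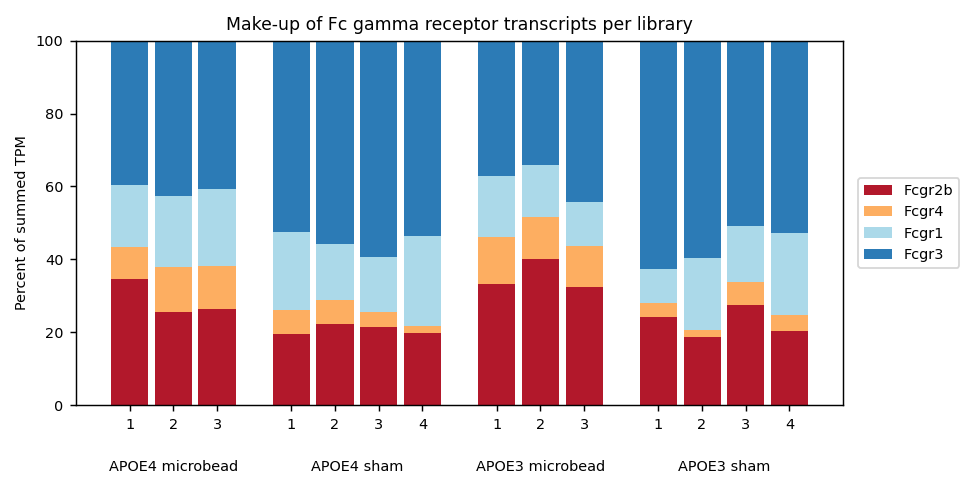
Share of each Fcγ receptor (percent of their summed TPM, vertical axis) in each of 14 libraries, numbered by replicate within a group. The Fcgr2b and Fcgr4 blocks are larger in microbead than in sham libraries of each genotype, and the Fcgr3 block is smaller.

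APOE4 was compared with APOE3 to ask whether these genes differ by genotype after sham injection or after microbead injection. None of the 7 genes was called among sham libraries, where 0.0131% of genes tested were, and none among microbead libraries, where 0.579% were. In sham libraries 1 of the 7 had an unadjusted p under 0.05 by edgeR, as did 4.4% of genes tested, and in microbead libraries 0 of 7 did, beside 9.74% of genes tested. Limma-voom also called none in either comparison, and DESeq2 none of the 7 in sham and none of the 6 to which it gave an adjusted p in microbead libraries (all but Fcgrt).

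Fcrls, the sort marker, had the largest genotype difference of the 7 in sham libraries. It had 229.3, 192.8 and 126.2 CPM in APOE4 microbead, 77.2, 89.4, 112.1 and 137.7 CPM in APOE4 sham, 169.7, 273.9 and 217.5 CPM in APOE3 microbead, and 176.9, 163.4, 280.5 and 265.3 CPM in APOE3 sham libraries. Every APOE4 sham library was below every APOE3 sham library, which held for 1.38% of genes tested. Means were 104.1 ± 26.7 CPM in APOE4 sham and 221.5 ± 59.9 CPM in APOE3 sham (SD, n = 4 each). The log2 difference was -1.09 ± 0.24, with an unadjusted p of 7.94e-05 that ranked 3 among 7605 genes. The adjusted p was 0.201, so the difference failed the correction. It was called only when no filter on low counts was used (-1.10, adjusted p = 0.00868), and leaving out 1 library at a time gave log2 differences of -1.26 to -0.97 with adjusted p-values of 0.0956 to 0.985. All sorted cells were positive for the protein, and transcript level among positive cells is what these values describe.

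In microbead libraries Fcrls had 182.8 ± 52.3 CPM in APOE4 and 220.4 ± 52.2 CPM in APOE3, and the groups overlapped (log2 difference -0.28 ± 0.26, edgeR adjusted p = 0.852). Within APOE4, microbead libraries were above sham by 0.81 ± 0.25 on the log2 scale (adjusted p = 0.298), with 1 microbead value inside the sham range. Within APOE3 the difference was near 0 (95% interval -0.49 to 0.49). In the same APOE3 libraries the microglial marker P2ry12 averaged 254 CPM with microbeads and 898 CPM with sham. Csf1r averaged 2204 CPM with microbeads and 3524 CPM with sham, and the other microglial markers listed above were also lower with microbeads. Unlike these markers, Fcrls was itself a gate of the sort, and the part of that gate in its level was not tested. The microbead effect on Fcrls was 0.81 ± 0.35 larger in APOE4 than in APOE3 (unadjusted p = 0.0300, adjusted p = 0.530). No gene of the 7 was called in this interaction, where 0.092% of genes tested were. At an unadjusted p under 0.05, 1 of 7 passed, beside 8.17% of genes tested, and limma-voom called none. DESeq2 called none of the 5 genes to which it gave an adjusted p, which left out Fcgr4 and Fcgrt.

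For Fcgr2b the microbead effect differed between genotypes by -0.34 ± 0.32 (edgeR adjusted p = 0.876) and for Fcgr4 by -0.47 ± 0.50 (adjusted p = 0.908), APOE4 minus APOE3. The 95% intervals, -0.99 to 0.31 for Fcgr2b and -1.49 to 0.56 for Fcgr4, include no difference, a smaller effect and a larger effect in APOE4. Between microbead groups, Fcgr2b had a log2 difference of -0.46 ± 0.24 (APOE4 over APOE3, adjusted p = 0.531). All APOE4 microbead libraries had less Fcer1g than any APOE3 microbead library, at -0.31 ± 0.18 (adjusted p = 0.662), which held for 7.28% of genes tested.

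**Figure D4:**
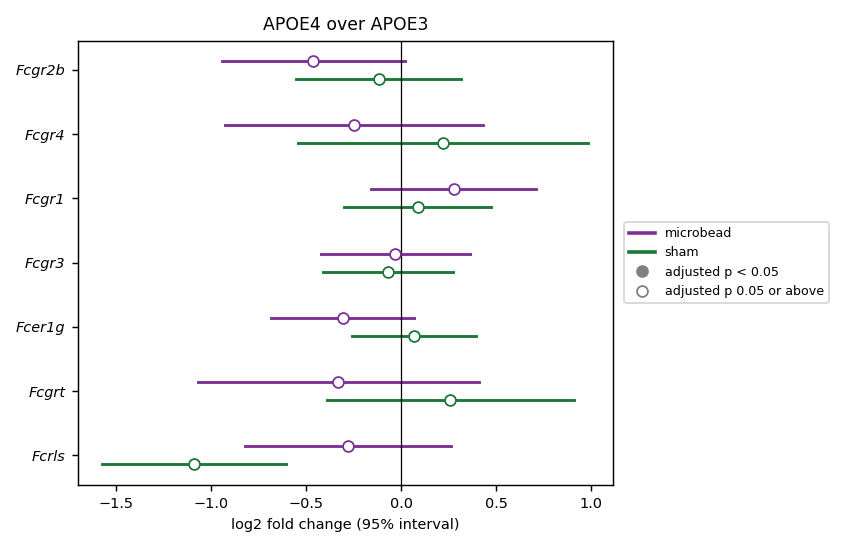
Log2 fold change of APOE4 over APOE3 (horizontal axis) for each gene, with 95% intervals, from the edgeR fit over 14 libraries. Microbead is drawn above sham, and no point is filled, since no adjusted p is under 0.05. The sham interval of Fcrls is the only one that does not reach 0.

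The genes downstream of the receptors were taken from a list of kinases, adaptors, phosphatases and oxidase subunits, of which 33 of 36 were tested. In APOE4 none passed the test with microbead injection (median log2 difference 0.045, against -0.004 over all genes), and Tyrobp, an ITAM adaptor related to Fcer1g, had 597 ± 34 CPM in microbead and 957 ± 66 CPM in sham libraries (-0.68 ± 0.17, edgeR adjusted p = 0.102). That difference was called by DESeq2 (adjusted p = 0.00266) and when the APOE4 libraries were fitted alone (0.00520). Tyrobp had 728 ± 36 CPM in APOE3 microbead and 568 ± 73 CPM in APOE3 sham libraries, so the APOE4 sham mean was the highest. Its difference between sham groups was 0.75 ± 0.15 (APOE4 over APOE3, edgeR adjusted p = 0.152). The interaction was -1.04 ± 0.24 (edgeR adjusted p = 0.0773). In APOE3, 3 rose and 1 fell (median 0.148, against -0.015), so 4 of 33 were called, beside 5.15% of all genes tested. Fgr, a Src-family kinase, rose to 57.9 ± 12.8 CPM in microbead against 4.58 ± 3.87 CPM in sham libraries (3.75 ± 0.45, adjusted p = 5.76e-06), where APOE4 had 17.1 ± 2.7 CPM in microbead and 15.95 ± 2.48 CPM in sham libraries (adjusted p = 0.996). Cybb, the catalytic subunit of the phagocyte oxidase, had 147.5 ± 115 CPM in microbead and 34.1 ± 3.6 CPM in sham libraries (2.15 ± 0.47, adjusted p = 0.0124). Rac2, a GTPase of the same oxidase, had 178 ± 35 CPM in microbead and 89.8 ± 29.0 CPM in sham libraries (0.98 ± 0.26, adjusted p = 0.0211). Pik3cg, a phosphoinositide kinase subunit, fell, with a log2 difference of -0.83 ± 0.24 (adjusted p = 0.0408). The monocyte sums given above were higher in the same APOE3 microbead libraries, and without both APOE3 microbead 1 and 2 the Cybb difference was 0.33 (adjusted p = 0.943), that of Rac2 0.61 (0.723) and that of Pik3cg -0.51 (0.754), while Fgr still passed the test (3.35, adjusted p = 0.0103).

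Single libraries also decided several of these calls. Cybb was not called without APOE3 sham 4 (adjusted p = 0.0505) or APOE3 microbead 2 (1.31, 0.0727). Rac2 was not called without APOE3 sham 1, 2 or 3 or APOE3 microbead 1 or 2 (0.0514 to 0.127), and Pik3cg without APOE3 sham 1, 2 or 4, APOE4 sham 1, APOE3 microbead 1 or 2, or any APOE4 microbead library (0.0501 to 0.226). Over all 27 alternatives the APOE3 call of Cybb held in 20, that of Rac2 in 14 and that of Pik3cg in 7. Fgr was the only gene of the list called between genotypes. It had 17.1 ± 2.7 CPM in APOE4 microbead and 57.9 ± 12.8 CPM in APOE3 microbead libraries (-1.75 ± 0.41, adjusted p = 0.0396), and its microbead effect was smaller in APOE4 than in APOE3 (-3.64 ± 0.65, adjusted p = 0.0155). The call between microbead groups was lost when any of APOE4 sham 1, 2 or 4, APOE3 microbead 1 or 2, or APOE4 microbead 1, 2 or 3 was left out (0.0503 to 0.248). The interaction was lost without APOE4 sham 1 or 2, APOE3 microbead 2 or APOE4 microbead 1 (0.0503 to 0.0640). Without both APOE3 microbead 1 and 2 neither passed (-1.35, adjusted p = 0.907, between microbead groups, and -3.23, adjusted p = 0.436, in the interaction). Nor did either with effective length offsets (-1.05, 0.747, and -3.02, 0.438). The call between microbead groups was also lost with a replicate block (0.0838) and with library totals (0.156), and the interaction with limma-voom (0.0707). Over all alternatives with a value, the call between microbead groups held in 10 of 26 and the interaction in 14 of 25.

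Fcer1g also carries signals for receptors other than those for IgG. Of a list of 13 receptors, most of them known to pair with it, 4 were tested. In APOE4 none passed, where 0.197% of all genes tested did. In APOE3, 2 of the 4 rose, beside 3.54% of all genes tested. Csf2rb, the shared beta chain of the receptors for GM-CSF and related cytokines, had 134.8 ± 19.4 CPM in APOE4 microbead, 111.1 ± 14.9 CPM in APOE4 sham, 238.0 ± 35.1 CPM in APOE3 microbead and 80.1 ± 5.1 CPM in APOE3 sham libraries. Its log2 difference in APOE3 was 1.57 ± 0.20 (edgeR adjusted p = 1.18e-05). Clec4n (Dectin-2) is a C-type lectin for fungal mannans. It had 52.3 ± 39.7 CPM in APOE3 microbead and 0.73 ± 0.87 CPM in APOE3 sham libraries (5.72, edgeR adjusted p = 0.00341). That call was lost without both APOE3 microbead 1 and 2, where the difference was 3.18. It was also lost with limma-voom over all libraries (4.82, adjusted p = 0.264) and held in 20 of 26 alternatives.

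Of 13 other Fc receptor genes, B2m was the only one with enough reads, and the Fc receptor-like genes Fcrl1, Fcrl5, Fcrl6, Fcrla and Fcrlb had 3 to 66 reads in all libraries together. Among the immunoglobulin genes, Ighm encodes the heavy chain of IgM, not of the IgG that Fcγ receptors bind. Ighm had 169.5 ± 29.4 CPM in APOE4 microbead and 248 ± 50 CPM in APOE4 sham libraries (edgeR adjusted p = 0.472). In APOE3 it had 104.5 ± 11.8 CPM in microbead and 267.1 ± 22.6 CPM in sham libraries. The APOE3 difference was -1.35 ± 0.21 (adjusted p = 0.000163), so it fell. The B cell list, which holds Ighm and had reads of 5 of 5 genes, summed to 171 to 247.5 CPM in APOE4 microbead, 251 to 336 in APOE4 sham, 109 to 147 in APOE3 microbead and 286 to 316 in APOE3 sham libraries. Of its other genes, Cd79b averaged 6.33 CPM in APOE3 microbead and 15.1 CPM in APOE3 sham libraries, Ms4a1 9.38 and 17.25 CPM, and Cd79a and Pax5 had 4 and 15 reads in all libraries. The part of B cell transcripts in the Ighm difference was not tested. The IgG heavy chain genes Ighg1, Ighg2b, Ighg2c and Ighg3 had 5 to 10 reads each.

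Genes whose levels ran most closely with each receptor were ranked by Pearson r of log2 CPM over the 14 libraries, among 1700 genes with a mean of at least 50 CPM (1701 for Fcgrt). The libraries fall into the 4 groups, so r also holds the group differences and is given as a description. Fcgr4 ran closest with H2-D1, a class I gene (r = 0.955), with Ctsb, a lysosomal protease (0.911), and with Fcgr2b (0.910). Fcgr2b ran closest with the translation factor Eef1b2 (0.925), with Ctsb (0.924) and with Eef1a1 (0.920). For Fcer1g the closest were Cox4i1 (0.957), Eef1a1 (0.933) and Ftl1 (0.919), and for Fcgr1 they were Nsd3 (0.911), Grn (0.889) and Oas2 (0.865). For Fcrls the highest r was 0.806 with Tmem176b, for Fcgr3 0.857 with Dnase2a, and for Fcgrt 0.822 with Rps7. Among the 7, the pair Fcgr2b and Fcgr4 had the highest r (0.910), and Fcgr2b and Fcer1g followed (0.888). Fcrls had r of 0.050 to 0.473 with the other 6.

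Counting of these genes has known limits. Fcgr2b and Fcgr3 share 233 stretches of 31 bases, which are 13.4% of those in Fcgr3 transcripts. Reads there were divided between them by the authors' estimation. In Fcgr2b transcripts 331 of 5609 stretches (5.90%) are shared with any other gene, among them Cplx2 with 62 and Rab3c with 44. Fcgr1, Fcer1g and Fcrls share none with another gene. Most Fcgr2b abundance was on transcript Fcgr2b-202, with 77.6% to 84.6% of the gene's TPM in the 4 groups. In Fcgr3, reads assigned to Fcgr3-204 were 0 in all APOE4 microbead libraries and 143 in APOE3 microbead 3, an all-or-nothing pattern, so isoform shares of Fcgr3 are not compared. Fcgr1-202, annotated as subject to nonsense-mediated decay, took 196 of the 1443 Fcgr1 reads but at least 46.1% of its TPM in each group, so the Fcgr1 TPM is less certain than its CPM.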

How the data were processed

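Microglia were sorted from retinas of APOE E3/E3 and APOE E4/E4 mice, and 14 libraries were sequenced. Salmon 1.4.0 with mm10, then R 4.0.3 and DESeq2 1.30.1, are named in the submitters' processing notes. The deposited files hold estimated counts per transcript. The authors' deposited series table holds TPM per gene, used here for levels per length. As a check of labels, TPM recomputed from a library was within 1% of its own column for 99.2% to 99.4% of genes, and of another column for 2.11% at most.

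Estimated counts of 115945 of 116945 transcripts were summed over 35449 genes with GENCODE M21 (GRCm38) and rounded. A quasi-likelihood model with TMM scaling and robust estimation (edgeR 4.0.16 in R 4.3.3, two-sided) had 4 group means over all 14 libraries. Of 28158 genes with a read, filterByExpr (minimum count 10, minimum total 15) left 7605. Adjustment was by Benjamini-Hochberg over those genes in each of 5 comparisons, and the SE was derived from the F statistic. The model was tested on simulated data first. Intervals are at 95%. Depth was 451173 to 727439 estimated reads, which limits genes with few reads. No 2 libraries of the same group agreed within sampling noise.

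Alternatives changed scaling, filter, tool, length correction, replicate block, libraries and the TPM pseudocount (1 or 0.1). The TPM fits used limma 3.58.1 on log2 values of the deposited TPM. A pseudocount of 1 can understate changes of genes with low TPM. With microbeads in APOE3, Fgr was 2.35 with a pseudocount of 1 and 3.55 with 0.1. Fcgr4 was 2.13 and 2.36, beside 2.23 in the main fit. The TPM alternative without repeat genes was chosen after seeing the data. Named genes are the 7 described, up to 4 genes per pathway list with the smallest p in each microbead comparison, and the 3 genes closest to each by r. The IgG heavy chains, Fcrl genes and cell type markers are given as read totals or levels outside that rule. A few markers of the original cell type lists are not reported here and are left out of the marker sums. The genes, lists and tests were chosen with earlier results of these data known. Groups follow the genotype and treatment labels. Promoter sequences are from RefSeq.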

Additional observations from a re-analysis of the deposited data

Results flagged for a closer look

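The TPM of Fcgr3 in APOE3 sham stood apart in 1 library: APOE3 sham 4 had 134 TPM, against 56.9, 62.3 and 69.0 TPM in the other 3 libraries, a gap of 0.842 of the group's range. It was 1 of 46 groups of 4 libraries examined for such a gap. These groups share genes and libraries, so they are not separate chances. How often chance gives such a gap was not tested. In CPM the same library had 360.1, inside the 326.8 to 410.4 of the other 3. The predicted genes that take up most reads held 38.6% of reads in APOE3 sham 4 and 56.3% to 61.4% in the other 3, and their part in the TPM value was not tested.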

How the results depend on the processing

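Of 27 alternatives, the APOE3 microbead calls of Fcgr2b and Fcgr4 held in 22 each and the APOE4 microbead calls in 10 (Fcgr2b) and 16 (Fcgr4), with the direction kept in all. In APOE4 the 2 genes called became 0 with library totals as scaling, 0 with effective length offsets, 1 with limma-voom and 0 with a replicate block, and 0 to 2 with 1 library left out. Whether the replicate numbers pair libraries is not stated in the labels. The same-number correlation of deviations was -0.144 to 0.0985 over 19 pairs, and weak correlations of this kind cannot exclude a pairing. The block left 2 genes called in APOE3. In both genotypes the count was 0 in all 4 TPM fits, and in APOE3 it was 0 without both APOE3 microbead 1 and 2. It was 1 with no filter on low counts for APOE4 against APOE3 in sham. The median of all genes moved away from 0 with library totals and with TPM at a pseudocount of 1: to -0.232 and -0.288 for microbead over sham in APOE4, 0.162 and 0.18 for APOE4 over APOE3 in sham, and -0.205 and -0.3 for the interaction. The cause of each lost call was not tested.

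Reversals concerned differences that were not called. For Fcrls with microbeads in APOE3 they were -0.01 with DESeq2 size factors, -0.0092 by DESeq2, -0.0242 with only the groups compared, -0.0279 without both APOE3 microbead 1 and 2, -0.13 with repeat genes left out of TPM, and -0.19 to 0.15 with 1 library left out. With library totals, microbead differences in APOE4 were -0.0303 for Fcgr3 and -0.0904 for Fcer1g, APOE4 over APOE3 in sham was 0.0417 for Fcgr2b and 0.0942 for Fcgr3, and the interaction was -0.0162 for Fcgr1 and -0.20 for Fcgr3. Without both APOE3 microbead 1 and 2, Fcgrt was -0.28 with microbeads in APOE3, 0.38 for APOE4 over APOE3 and 0.12 in the interaction, and Fcgr3 -0.0203 in the interaction. In the TPM fits with a pseudocount of 1, with or without the filter, the microbead differences in APOE4 were -0.17 for Fcgr3 and -0.22 for Fcer1g, the sham genotype differences 0.10 for Fcgr2b and 0.19 for Fcgr3, and the interactions -0.25 for Fcgr1 and -0.33 for Fcgr3. With a pseudocount of 0.1 they were -0.17, -0.22, 0.11, 0.19, -0.27 and -0.33 in that order. With repeat genes left out, Fcgr3 was 0.11 for APOE4 over APOE3 in microbead. Leaving out 1 library gave -0.0147 to 0.11 for Fcer1g, -0.0112 to 0.16 for Fcgr1, -0.24 to 0.0044 for Fcgr2b and -0.0514 to 0.48 for Fcgr4 for APOE4 over APOE3 in sham, -0.14 to 0.0472 for Fcgr3 in microbead, -0.0628 to 0.12 for Fcgr3 in the interaction and -0.52 to 0.0655 for Fcgrt with microbeads in APOE4. Depth limits Fcgrt and Fcgr4 in sham libraries most.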
